A study of Mus musculus with 42 samples.

Results

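The 7 genes described here encode the core of the MHC class II antigen presentation pathway: the class II chains H2-Aa, H2-Ab1 and H2-Eb1, the invariant chain Cd74, the peptide exchange chains H2-DMa and H2-DMb1, and the transactivator Ciita. They were taken by symbol from the tables, where each was listed in all 9, out of 20462 genes listed in at least 1 table. RNA was sequenced from mouse colon crypts and colon tumors in 42 libraries of 14 groups, to ask how the corepressor MTG16 (gene symbol Cbfa2t3) shapes the colon epithelium at rest, after injury and in tumors. The tables hold normalized counts, that is, reads per gene divided by a size factor for each library, and the scaling was done separately for each table.

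Every group came from C57/BL6 mice of at least 8 weeks. The mice belonged to 2 separately bred colonies, each with its own WT littermates. Mice of the Mtg16-null colony were WT or Mtg16-/-, which lack the gene in all tissues. Mice of the P209T colony were WT or Mtg16 T/T, homozygous for a CRISPR-made change of proline to threonine that weakens the binding of MTG16 to the E proteins E2A and HEB. Untreated crypts were freed with chelating buffer from proximal colon (5 cm measured from the cecum) and distal colon (5 cm measured from the anus). The proximal groups held 2 libraries each. The distal groups held 4 WT and 4 Mtg16-/- libraries in the null colony, and 3 WT and 4 Mtg16 T/T libraries in the P209T colony. Injured and regenerating distal crypts came from mice given 2% dextran sodium sulfate (DSS) in their drinking water for 5 days and then plain water for 4 days (3 WT and 4 Mtg16-/-; 3 WT and 3 Mtg16 T/T). The tumors (3 WT and 3 Mtg16 T/T, P209T colony) arose after azoxymethane at 10 mg/kg and 3 cycles of 3% DSS, and were homogenised whole, so they also hold stroma and leukocytes. The mutations are present in every cell of the mouse, leukocytes included. P-values measure the spread between the libraries of a group.

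In GENCODE vM21 (build GRCm38) Cd74 lies at chr18:60803848-60812652 (+) and Ciita at chr16:10480059-10528418 (+), and the other 5 lie within 1 stretch of chromosome 17: H2-DMa at chr17:34119541-34139101 (+), H2-DMb1 at chr17:34153072-34160230 (+), H2-Ab1 at chr17:34257689-34269419 (+), H2-Aa at chr17:34282744-34287823 (-) and H2-Eb1 at chr17:34305867-34316674 (+). H2-DMb1 shared 31.4% of the 31-base words of its exons with its neighbour H2-DMb2, so its counts are uncertain to that extent. H2-DMa shared 9.23% with Brd2 and Ciita 2.77% with other genes, mostly Dexi, each of which overlaps it on the opposite strand. The remaining 4 shared at most 1.41%.

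MHC class II molecules are alpha and beta chain pairs that carry peptides from endosomes to the cell surface and show them to CD4+ T cells. CD74 escorts newly made pairs and blocks their groove until proteases remove it, H2-DM then exchanges its last fragment for peptide, and CIITA, recruited by DNA-bound RFX, CREB and NF-Y, switches the set of genes on together. B cells, dendritic cells and macrophages carry the pathway constitutively. Intestinal epithelium also carries it, largely in response to interferon gamma and to the microbiota. C57BL/6 mice have a defective H2-Ea gene, so H2-Eb1 protein lacks its alpha partner in these animals.

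Class II genes are read out through a shared promoter module in which an X box bound by RFX and CREB stands a fixed short distance before a Y box bound by NF-Y. The stretches below are shown because they hold that module in 3 members and in the low-expressed relatives H2-DMb2 and H2-Eb2. They were read from RefSeq promoter windows (GRCm38.p6, 250 bases before to 50 bases after each gene's start), 5' to 3' on the gene's strand, with the X and Y letters in capitals. A window was given for 4 of the 7 genes and for all 4 of the relatives H2-DMb2, H2-Eb2, H2-Oa and H2-Ob.
H2-Aa, chr17:34287857-34287907 (-): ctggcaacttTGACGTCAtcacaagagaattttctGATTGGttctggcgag
H2-Eb1, chr17:34305768-34305822 (+): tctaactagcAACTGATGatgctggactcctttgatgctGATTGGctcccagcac
H2-DMb1, chr17:34153089-34153144 (+): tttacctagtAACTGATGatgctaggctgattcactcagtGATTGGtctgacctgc
H2-DMb2, chr17:34145118-34145173 (+): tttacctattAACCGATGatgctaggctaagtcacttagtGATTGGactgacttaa
H2-Eb2, chr17:34325535-34325589 (+): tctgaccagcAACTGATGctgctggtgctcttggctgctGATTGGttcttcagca

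The letters searched, on both strands, were AACNGATG (X1), TGACGTCA (X2, the CREB letters) and GATTGG (Y), and they were chosen after these promoters had been read. Of 32851 windows, 2.32% held X1, 1.79% X2 and 16.1% Y. X1 followed 20 to 35 bases later by Y on the gene's strand was found in 5 windows (0.0152%): H2-DMb1, H2-Eb1, H2-DMb2, H2-Eb2 and BC051142, all on chromosome 17. In H2-Eb1 the X letters began 89 bases before the start and the Y letters 60 bases before it. In H2-DMb1 they began 92 and 62 bases before it, the same spacing within 1 base. H2-Aa held no X1 in its window but X2 at 74 bases and Y at 49 bases before its start. The 2 windows of H2-DMa held neither X letters, and those of the relatives H2-Oa and H2-Ob held Y but no X letters. A match is a description of letters, not a measured binding site.

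Reads could be recovered exactly from the normalized counts of 38 libraries, which held 32231389 to 74661922 reads assigned to genes (median 46659625). The 4 proximal mutant libraries are given only as normalized counts. Cbfa2t3 was lower in each mutant library than the WT mean in all 3 Mtg16-/- comparisons, with a log2 fold change of -2.02 after DSS (adjusted p = 0.00292, limma), -1.49 in proximal crypts (adjusted p = 0.445) and -1.11 in distal crypts (adjusted p = 0.303), where 1 Mtg16-/- library overlapped the WT range. The library labelled distal Mtg16-/- replicate 2 did not look distal. Over 897 genes higher in distal and 1259 higher in proximal WT crypts, the mean difference was -0.75 on the log2 scale in it. That score was 1.64 to 1.97 in the other untreated distal libraries and -1.09 to -0.91 in proximal WT. The fold changes of the members that rest on this library are given with and without it. Fewer cells of a type and less RNA per cell cannot be told apart in these bulk samples.

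The class II genes were abundant in crypts. On a scale shared by the 38 libraries (RPM, reads per 1000000 reads, scaled by the TMM method) and per kilobase of each gene's principal transcript, Cd74 had a median of 1298 over the 32 crypt libraries (793 to 1899). By RPM it ranked between 22 and 76 among 16653 genes. The alpha and beta chains H2-Aa (538, 267 to 1006) and H2-Ab1 (526, 282 to 944) came next per kilobase, with ranges that almost coincided. H2-Eb1 followed at 213 (106 to 332), H2-DMb1 at 93 (53.6 to 126), H2-DMa at 43.9 (20.6 to 63.2) and the transactivator Ciita at 9.65 (4.31 to 22.1). Each neighbour in this order overlapped the next over the 32 libraries.

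Close relatives of these genes were far lower in the same crypts. H2-DMb2, which shares the promoter letters shown above, had 0.133 to 6.12 RPM, and H2-Eb2 0.044 to 0.924, against 75.2 to 177 for H2-DMb1 and 177 to 554 for H2-Eb1. H2-Oa and H2-Ob, the chains of the H2-DM inhibitor found mainly in B cells, reached at most 2.22 and 1.81.

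Across the crypt groups the level of Cd74 varied over a narrower range than that of H2-Aa. Its mean in untreated distal crypts was 1993 RPM ± 449 (SD, n = 4) in WT of the null colony and 1793 ± 324 (n = 3) in WT of the P209T colony. Mtg16-/- crypts had 2258 ± 406 (n = 4; 2428 ± 268 without the library with the proximal-like profile, n = 3) and Mtg16 T/T crypts 1793 ± 327 (n = 4). After DSS the order was WT of the P209T colony (2100 ± 133, n = 3), Mtg16-/- (1753 ± 256, n = 4), WT of the null colony (1528 ± 398, n = 3) and Mtg16 T/T (1408 ± 150, n = 3). The first and the last of these 4 groups, at 1948 to 2194 and 1240 to 1528, lay apart, and each neighbour in the order overlapped the next. H2-Aa spread more widely, from 911 ± 256 (n = 4; 1017 ± 177 without that library) in untreated Mtg16-/- crypts to 315 ± 18.3 (n = 3) in Mtg16 T/T crypts after DSS.

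**Figure D1:**
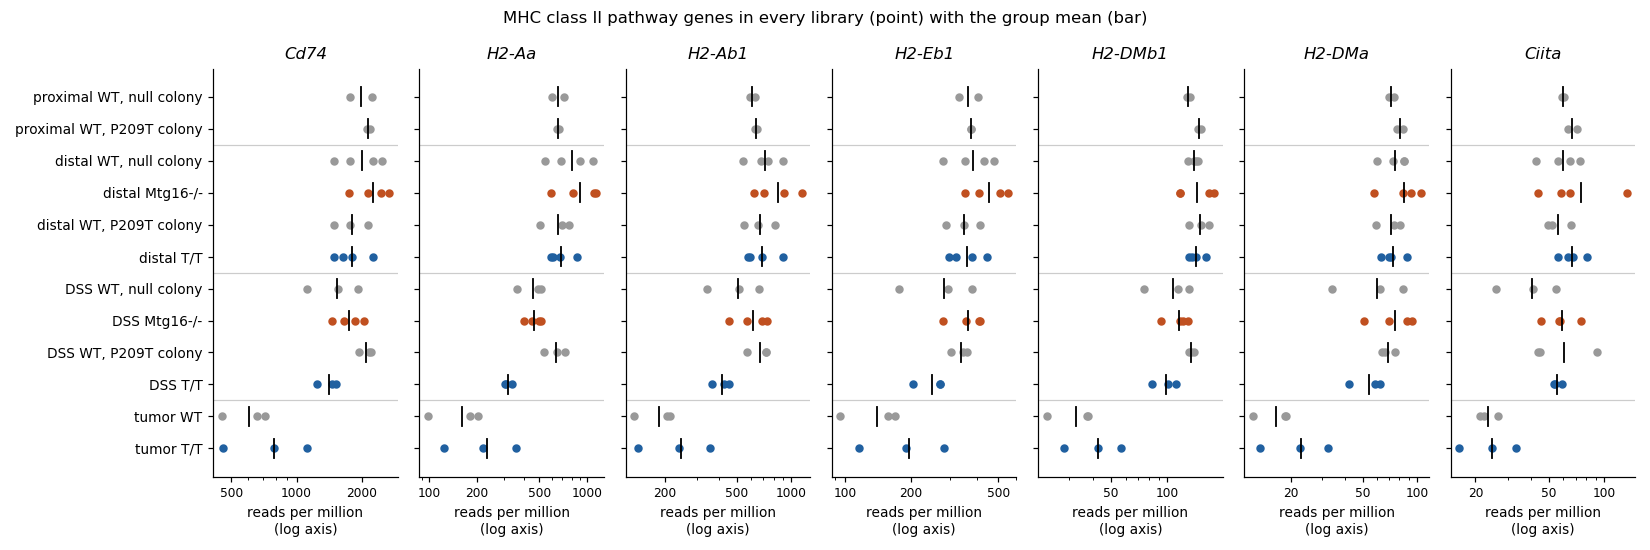
RPM (log axis) of the 7 genes in every library of the 12 groups with recovered reads; each point is 1 library, the bar is the group mean, grey is WT, orange Mtg16-/- and blue Mtg16 T/T. Crypts and tumors separate for Cd74, at 1119 to 2677 against 451 to 1113, and H2-Aa is lowest among the crypt groups in Mtg16 T/T after DSS (301.2 to 335.8).

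Whole tumors had less of every member than most crypts although they held more transcripts of B cell, dendritic cell and macrophage markers. The 7 genes summed to 836 to 2226 RPM in the 6 tumors (median 1329), against 3067 to 5800 in the 19 untreated crypt libraries (median 4072). Cd74 was 451 to 1113 in tumors and 1119 to 2677 in crypts, without overlap. Markers of B cells, dendritic cells and macrophages (25 genes, Ciita and class II not among them) summed to 397 to 825 in tumors and 12 to 36.3 in untreated crypts. T cell markers overlapped, at 10.3 to 25.4 in tumors and 6.5 to 71.8 in untreated crypts. Fibroblast markers summed to 2022 to 2832 in tumors and 0.507 to 22.4 in untreated crypts, and endothelial markers to 151 to 240 and 3.49 to 9.06. The 9 epithelial markers summed to 8606 to 13158 in tumors and 17956 to 25203 in untreated crypts. No tumor table holds crypts, and tumors were made and sequenced apart from crypts, so tissue, treatment and request cannot be told apart and no test was made.

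In untreated crypts Cd74 and the class II chains stood far above the markers of B cells, dendritic cells and macrophages. There, B cell markers (7 genes) summed to 0.631 to 5.04 RPM, dendritic cell markers (9 genes) to 1.73 to 9.24 and macrophage markers (9 genes) to 4.41 to 31.5, while Cd74 alone was at 1482 or more. No marker of these 3 lists was at 0 in all libraries of a group. Plasma cell markers summed to 161 to 287, general leukocyte markers to 16.3 to 116 and T cell markers to 6.5 to 71.8. The lower members did not stand above all of these, with Ciita at 42.75 to 132.8, H2-DMa at 57.67 to 104.7 and H2-DMb1 at 116.1 to 177.3. After DSS the 25 markers summed to 73.6 to 216 in Mtg16-/- crypts and 16.2 to 43.7 in their WT littermates. The summed members of the same libraries were 2785 to 3985 and 2134 to 3697. The part of these cells in the members' levels was not tested.

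**Figure D2:**
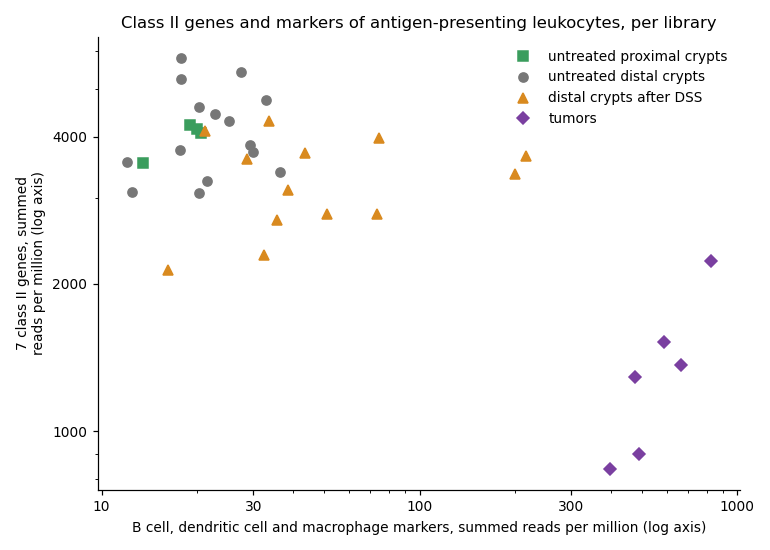
Summed RPM of the 7 genes (vertical, log axis) against summed markers of B cells, dendritic cells and macrophages (horizontal, log axis), 1 point per library. Untreated crypts lie at 12 to 36.3 markers with 3067 to 5800 for the 7 genes, and the 6 tumors lie at 397 to 825 markers with 836 to 2226.

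The colon segments were compared in WT mice, 7 distal against 4 proximal libraries of both colonies, and no member was called different (limma on log2 of the normalized count plus 1, adjusted over all genes, threshold 0.05). Of 13841 genes tested, 42.1% were called. None of the 7 had an unadjusted p under 0.05, against 49.4% of all genes, and edgeR and DESeq2 also called none. With the replicate number as a block, limma called Ciita (-0.35, adjusted p = 0.013). H2-Aa had 25720, 30622, 28399 and 27436 normalized counts in proximal crypts, and 22916 (lowest), 29133 (median) and 46003 (highest) in distal crypts. The distal range enclosed the proximal one. The fold changes of the members lay between -0.16 (Ciita, SE 0.13, adjusted p = 0.353) and 0.13 (H2-Ab1, SE 0.13, adjusted p = 0.44), and the distal and proximal groups overlapped for each of the 7, where they did not overlap for 30% of all genes. Within sequencing request 4149, the only one with both segments (2 libraries each), the sign of Cd74, Ciita, H2-Eb1 and H2-DMa turned, and H2-Aa was 0.59 (adjusted p = 0.0894).

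Around class II, 13 of 37 tested genes of 6 pathway lists were called between segments (35.1%), a share under the 42.1% of all genes, so nothing is read from their number. Of 7 genes of the factor complex that binds class II promoters, 2 were higher and 1 lower in distal crypts. Rfxank, a subunit of RFX, had 1177 ± 88.8 (SD, n = 7) against 756 ± 35.4 normalized counts (n = 4, adjusted p = 1.06e-05, limma). Of 5 genes of endosomal protein processing, 3 were higher and 1 lower. Ctss, the cathepsin that trims CD74, was 0.53 higher on the log2 scale (adjusted p = 0.000487), and Lgmn, an asparaginyl endopeptidase, was 1.75 lower (log2 fold change -1.75, adjusted p = 2.31e-07). Socs1, a feedback inhibitor of interferon gamma signalling, was lower in distal crypts (log2 fold change -0.77, adjusted p = 0.0034). Leukocyte markers differed between the same libraries in both directions. Of the T cell markers 4 of 5 tested were lower in distal crypts, and their sum was 44.4 to 71.8 RPM in proximal and 6.5 to 25.7 in distal WT crypts. Plasma cell markers (4 of 4) and general leukocyte markers (5 of 6) were lower too. Of 9 macrophage markers, 5 were higher and 1 lower (median log2 fold change 1.63), C1qc being 3.45 higher and C1qa -1.02. The part of these cells in the differences was not tested.

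In untreated Mtg16-/- crypts no member was called in either segment. Cd74 had 80669 and 101764 normalized counts in proximal WT and 101665 and 110129 in proximal Mtg16-/- crypts. In distal crypts it had 77162, 64469, 106471 and 98333 in WT and 116593, 76620, 106811 and 93635 in Mtg16-/-. The mutant libraries were on average higher in both, and the groups overlapped in both. The log2 fold change was 0.22 (SE 0.20, 95% interval -0.25 to 0.69) in proximal and 0.19 (SE 0.20, -0.26 to 0.64) in distal crypts.

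Ciita had the largest positive fold change of the 7 in the proximal crypts. It was 2789 and 2712 in WT and 4723 and 3067 in Mtg16-/-, a log2 fold change of 0.47 (adjusted p = 0.833, limma). The lower mutant library lay just above both WT libraries. The sign was positive for 6 of 7 members in proximal and 7 of 7 in distal crypts. Within request 4149 alone the distal signs of Cd74 (-0.03), H2-Aa (-0.05) and H2-Ab1 (-0.02) turned. In proximal crypts 4 of the 7 did not overlap between genotypes, where 35.6% of all genes did not with 2 libraries a side. Of all genes, 0.0645% were called in proximal and 0.239% in distal crypts. No member had an unadjusted p under 0.05 in either (5.96% and 4.63% of all genes did), and neither edgeR nor DESeq2 called one in distal crypts. There the groups overlapped for all 7 members and did not for 3.75% of all genes. Without the library labelled distal Mtg16-/- replicate 2, 143 instead of 33 genes were called in distal crypts, none of them a member. The log2 fold changes were then 0.31 for Cd74 and Ciita, 0.37 for H2-Aa, 0.36 for H2-Ab1 and H2-Eb1, 0.32 for H2-DMa and 0.13 for H2-DMb1, and 1.04% of all genes were called. Of the 35 pathway genes followed beside the members, 0 were called with or without it.

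In untreated Mtg16 T/T crypts no member was called either. In the distal segment, with 3 WT and 4 mutant libraries, the fold changes were close to 0, from -0.08 (H2-DMb1, SE 0.10) to 0.24 (Ciita, SE 0.15). Cd74 had 58987, 69478 and 83884 normalized counts in WT and 85794, 58872, 71276 and 63953 in Mtg16 T/T, so the groups lay on top of each other. The 95% interval of its log2 fold change ran from -0.40 to 0.37. Of all genes, 0.0369% were called in distal crypts, and limma, edgeR and DESeq2 called no member, with none at an unadjusted p under 0.05 (4.65% of all genes were). The groups overlapped for all 7 members, and did not for 7.7% of all genes.

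In the proximal segment all 7 members had negative signs in Mtg16 T/T, and 1 library carried the difference. Cd74 had 87344 and 89249 in WT and 82925 and 59158 in Mtg16 T/T. H2-DMb1, the chain with the largest change there, had 5997 and 6157 in WT and 5390 and 3948 in Mtg16 T/T (log2 fold change -0.40, SE 0.15, adjusted p = 0.383, limma). The second mutant library was the lowest of the 4 for each of these, and without one or other library the change of Cd74 ranged from -0.58 to -0.09. Of the 7, H2-DMb1 had an unadjusted p under 0.05, as 12% of all genes did, and 4 did not overlap between genotypes, where 45.5% of all genes did not. The share of all genes called was 0.232%.

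The WT distal crypts of the 2 colonies overlapped for each of the 7 genes. Log2 fold changes of the P209T over the null colony ran from -0.27 (H2-Aa, 95% interval -0.81 to 0.27) to 0.10 (H2-DMb1, -0.11 to 0.31), and limma, edgeR and DESeq2 called no member, with none at an unadjusted p under 0.05. Of all genes, 0.0368% were called, 10.4% had such a p and 10.4% did not overlap. The P209T libraries came from request 5094 and those of the null colony from 4149 and 5094. Within request 5094 alone the signs of all members but H2-DMb1 turned positive, from 0.08 (H2-Aa) to 0.17 (Ciita).

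After DSS the class II genes of WT crypts in the P209T colony had values that overlapped those of untreated crypts. In untreated WT crypts Cd74 had 68532, 79726 and 96920 normalized counts, and after DSS 86188, 97148 and 95767. H2-Aa had 23142, 31290 and 35165 untreated and 23755, 29146 and 31761 after DSS. The groups overlapped for all 7 members. Fold changes ran from -0.19 (H2-DMb1, SE 0.12, adjusted p = 0.214) to 0.20 (Cd74, SE 0.15, adjusted p = 0.309, limma). None of the 7 was called by limma, edgeR or DESeq2 or had an unadjusted p under 0.05, while 35.6% of 13566 genes were called, 50.3% had such a p and 55.3% did not overlap between groups. Without DSS replicate 3, Ciita was -0.35 (adjusted p = 0.0353) and 9086 in place of 4833 genes were called. Without untreated replicate 2, 1 gene was called. The 95% interval of H2-Aa, -0.52 to 0.38, covers changes in both directions.

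Of 35 tested genes of the pathway lists 7 were called in that comparison (20%), under the 35.6% of all genes, so their number says nothing particular to the pathway. The endosomal thiol reductase Ifi30 rose (log2 fold change 0.55, adjusted p = 0.0348), as did the cathepsin Ctsb (0.43, adjusted p = 0.0255) and Tapbp, a chaperone of class I loading (0.52, adjusted p = 0.0171). Creb1, which binds the X box, fell by 2.75 on the log2 scale (adjusted p = 0.00803), and Jak2, a kinase of interferon gamma signalling, fell by 2.18 (adjusted p = 0.0245). Genes with long transcripts were lower after DSS in these libraries, with a median log2 fold change of -0.63 for principal transcripts over 6 kb against 0.13 for those of 1 to 2 kb, the class of all members but Ciita. Its part in the changes of Creb1 and Jak2 was not tested. Marker genes of other cells moved in the same libraries. Macrophage markers rose for 2 of 9 (Csf1r by 0.76 and C1qa by 0.68) and fell for 1. Fibroblast markers rose for 2 of 4 (Col1a1 by 1.54 and Col3a1 by 2.0). Plasma cell markers rose for 2 of 4 and epithelial markers for 3 of 9. Of 6 general leukocyte markers 1 was called, Ptprc (CD45), which fell by 4.15 on the log2 scale. The median of the 6 was -0.26. The part of these cells in the members' values was not tested.

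In WT crypts of the null colony all 7 members had negative fold changes after DSS, and edgeR called none. These libraries lie in 2 tables, so recovered reads were scaled together and tested with edgeR. H2-Aa had 683, 542, 1101 and 901 RPM untreated and 490, 362 and 513 after DSS. All 3 libraries after DSS lay below all 4 untreated ones. The log2 fold change was -0.83 (SE 0.23, adjusted p = 0.0722), with an exact two-sided permutation p of 0.0571. Without the untreated WT replicate 2 it was -0.97 (adjusted p = 0.028), and DESeq2 gave an adjusted p of 0.0117. H2-Aa was also called with the replicate number as a block and with the trend on transcript length removed.

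The other 6 also had negative signs, from -0.34 (H2-DMa, SE 0.25) to -0.56 (Ciita, SE 0.25), and overlapped between groups. Cd74 was 1771, 1484, 2479 and 2240 untreated and 1913, 1119 and 1553 after DSS (-0.39, adjusted p = 0.331). DSS replicate 2 was the lowest library for each of the 7 genes. Of the 7, 3 had an unadjusted p under 0.05, as did 21.3% of all genes, and 5.25% of 14213 genes were called. H2-Aa was the 1 of 7 whose groups did not overlap, against 19.8% of all genes. In the same libraries the fibroblast collagen Col1a1 rose by 3.12 on the log2 scale (adjusted p = 0.00181, edgeR). It was the 1 called of 4 fibroblast markers tested. Of 6 general leukocyte markers 1 was called, Spi1, a transcription factor of myeloid and B cells. Spi1 rose by 2.82 (adjusted p = 0.0122, edgeR), from a low mean of 0.2476 to 1.755 RPM. Of 9 macrophage markers 7 had an unadjusted p under 0.05, with a median of 1.18 and none called by edgeR. Their part in the members' values was not tested.

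In Mtg16-/- crypts H2-Aa fell after DSS. It had 1102, 594, 1135 and 813 RPM in untreated Mtg16-/- crypts and 447, 398, 499 and 514 after DSS. Every library after DSS lay below every untreated one, the closest pair being 594 and 514. The log2 fold change was -0.96 (SE 0.21, 95% interval -1.38 to -0.54, adjusted p = 0.0153, edgeR), and the exact two-sided permutation p was 0.0286, the smallest that 4 against 4 libraries allow. The 594 belongs to the library with the proximal-like profile. Without it the fold change was -1.12 (adjusted p = 0.00115).

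The remaining members had smaller negative changes that were not called. The exception was the fit with the trend on transcript length removed, where Cd74 and H2-Ab1 were called (adjusted p = 0.0387 each, edgeR). H2-Ab1, the partner chain of H2-Aa, was 1144, 623, 916 and 704 untreated and 692, 455, 570 and 735 after DSS (-0.45, SE 0.23, adjusted p = 0.163). The 2 groups overlapped, as they did for all members but H2-Aa. Cd74 was -0.35 (adjusted p = 0.165) and H2-DMa -0.15 (adjusted p = 0.651). Without the library with the proximal-like profile, Cd74 was -0.46 (adjusted p = 0.0622), H2-Ab1 -0.57, H2-Eb1 -0.42, H2-DMb1 -0.41, H2-DMa -0.29 and Ciita -0.44, still with H2-Aa as the 1 member called and with 30.1% of all genes called. With all libraries the calls held 1 of 7 members, where 23.9% of 14285 genes were called and 41% had an unadjusted p under 0.05. The groups did not overlap for 28.8% of all genes. In the same comparison the relatives H2-DMb2, H2-Oa and H2-Ob rose from low levels. H2-DMb2 went from 0.320 ± 0.147 (SD, n = 4) to 3.02 ± 2.20 RPM (n = 4, log2 fold change 3.25, adjusted p = 0.00617, edgeR). It was 3.55 (adjusted p = 0.00249) without the library with the proximal-like profile. Markers of B cells (5 of 6 tested, 6 of 7 without that library), macrophages (8 of 9, with or without it) and leukocytes in general (5 of 6, with or without it) rose with them. Of these, Cd79a, a subunit of the B cell receptor, went from 0.264 ± 0.176 to 3.82 ± 3.51 RPM. Fibroblast markers rose as well, 3 of 4 tested with a median log2 fold change of 4.43 (4 of 5 and 4.0 without that library), as did 2 of 5 dendritic cell markers (4 of 6 without it). The part of these cells in the changes was not tested.

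In Mtg16 T/T crypts the decrease of H2-Aa after DSS was of the same order. It was 860, 593, 679 and 609 RPM untreated and 336, 301 and 308 after DSS, well apart. The log2 fold change was -1.11 (SE 0.18, 95% interval -1.46 to -0.77, adjusted p = 0.0177, edgeR), with an exact two-sided permutation p of 0.0286, the smallest possible here. This call passed narrowly. It was lost when untreated replicate 2 (adjusted p = 0.0554), untreated replicate 3 (0.0605) or DSS replicate 1 (0.0849) was left out. It was lost with the replicate block too (adjusted p = 0.108). DESeq2 kept it.

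H2-Ab1 was not called by edgeR and was called by DESeq2 (log2 fold change -0.74, adjusted p = 0.0307). It was 901, 588, 693 and 574 untreated and 423, 366 and 451 after DSS, again without overlap (-0.73, SE 0.20, adjusted p = 0.0869 by edgeR). With the trend on transcript length removed, H2-Ab1 and H2-DMb1 were called beside H2-Aa (-0.79, adjusted p = 0.0402, and -0.57, adjusted p = 0.0438). H2-DMb1 (-0.52, adjusted p = 0.114), H2-Eb1 (-0.52, adjusted p = 0.173) and H2-DMa (-0.42, adjusted p = 0.259) did not overlap either, making 5 of 7 against 21.5% of all genes. Cd74, the most abundant member, was 2241, 1482, 1806 and 1643 untreated and 1457, 1240 and 1528 after DSS, and Ciita had overlapping groups as well (-0.26, adjusted p = 0.352). Of all genes, 4.28% were called. An unadjusted p under 0.05 was found for 4 of 7 members and 22.3% of all genes. Markers of B cells rose here too, 3 of 5 tested, and Lgmn rose in both mutants after DSS (0.98 in Mtg16-/-, adjusted p = 0.0472; 1.17 in Mtg16 T/T, adjusted p = 0.0156). Every comparison of DSS with untreated crypts set libraries of different sequencing requests against each other, so DSS and request cannot be told apart.

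**Figure D3:**
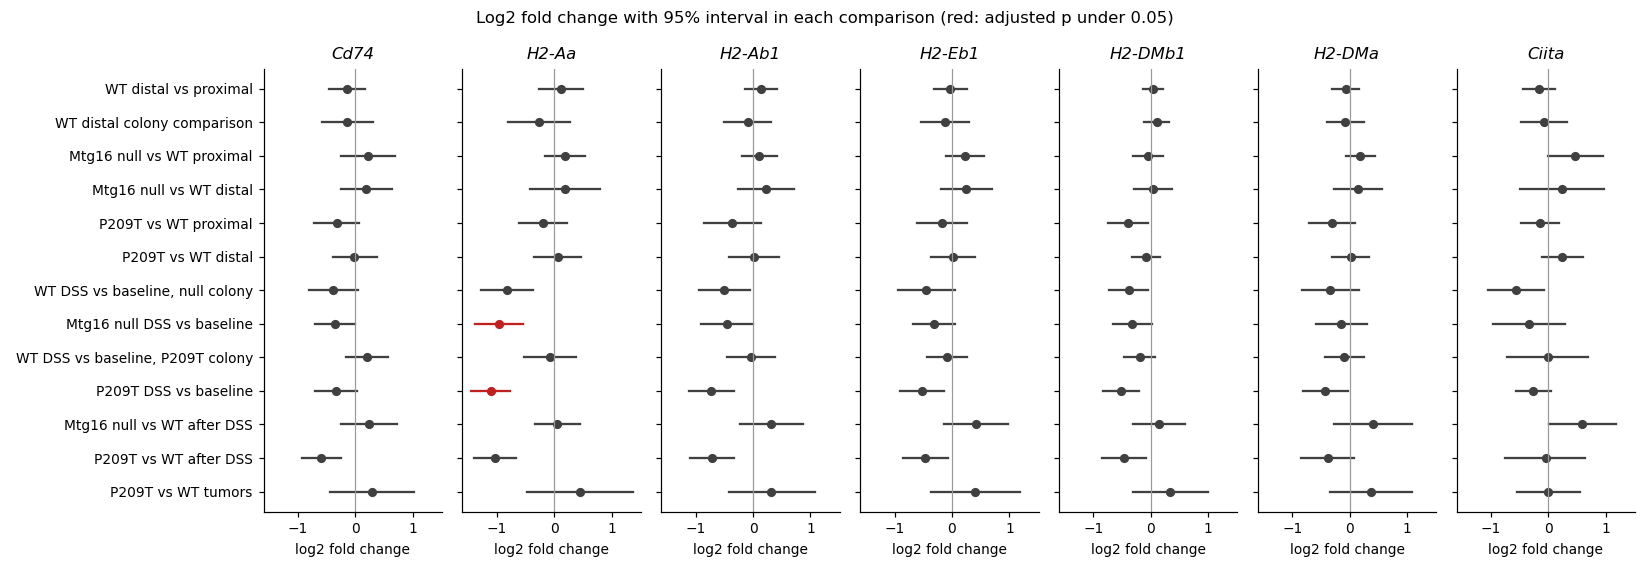
Log2 fold change of each of the 7 genes (1 panel per gene) in the 13 comparisons, with 95% intervals, red where the adjusted p is under 0.05. Red points are seen for H2-Aa alone, in Mtg16-/- (-0.96) and Mtg16 T/T crypts (-1.11) after DSS against untreated crypts of the same genotype.

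After DSS, Mtg16-/- and WT crypts of the null colony overlapped for each member. Cd74 had 99279, 59613 and 81705 normalized counts in WT and 97647, 76866, 89626 and 107579 in Mtg16-/-. H2-Aa had 25435, 19287 and 27017 in WT and 23554, 21090, 26934 and 27011 in Mtg16-/-, which is the same range. Ciita had the largest change, with 2129, 1378 and 2866 in WT and 2390, 3065, 4053 and 2979 in Mtg16-/-. Each mutant library exceeded the WT mean, and the groups overlapped (log2 fold change 0.59, SE 0.26, adjusted p = 0.389, limma). All 7 signs were positive, with a median of 0.32 against -0.00 for all genes. No member was called by limma, edgeR or DESeq2, and Ciita alone had an unadjusted p under 0.05, while 0.629% of 14476 genes were called, 12.4% had such a p and 11.4% did not overlap between genotypes. With the replicate number as a block, 1271 genes were called in place of 91, none of them a member. Ciita then had a fold change of 0.61 (adjusted p = 0.064, limma). In all 3 same-numbered pairs Ciita, H2-Ab1, H2-Eb1 and H2-DMa were higher in Mtg16-/-. Cd74, H2-Aa and H2-DMb1 went both ways. Ciita had 45.38, 57.87 and 75.1 RPM in Mtg16-/- replicates 1 to 3, against 41.01, 25.87 and 54.46 in WT. Lyz2, a macrophage lysozyme, was higher in the same Mtg16-/- libraries (log2 fold change 3.29, adjusted p = 0.048), and the macrophage markers summed to 59.8 to 180 RPM against 12.5 to 30.7 in WT.

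In the P209T colony the genotypes separated after DSS for 6 of the 7 members, without reaching the threshold across all genes. H2-Aa had 25823, 31427 and 33535 normalized counts in WT and 15379, 14409 and 14473 in Mtg16 T/T. The mutant mean, 14754 ± 543 (SD, n = 3), was 48.8% of the WT mean, 30262 ± 3986 (n = 3). The log2 fold change was -1.03 (SE 0.15, 95% interval -1.40 to -0.66), with an adjusted p of 0.154 from limma, 0.182 from edgeR and 0.00026 from DESeq2. An exact permutation test of 3 against 3 libraries cannot go below 0.1, the value it gave.

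The chaperone Cd74 and the partner chain H2-Ab1 had negative fold changes that were not called. Cd74 had 93688, 104749 and 101116 in WT and 66731, 59316 and 71781 in Mtg16 T/T (-0.60, SE 0.14, adjusted p = 0.262). H2-Ab1 had 27237, 34978 and 33297 in WT and 19356, 17489 and 21185 in Mtg16 T/T (-0.72, SE 0.16, adjusted p = 0.253). For both, the highest mutant library lay well under the lowest WT library. H2-DMb1 had 6223, 6444 and 6393 in WT and 4635, 3985 and 5194 in Mtg16 T/T (-0.47, SE 0.16, adjusted p = 0.449). H2-Eb1 (-0.47, SE 0.17) and H2-DMa (-0.38, SE 0.19) showed the same order of groups.

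Ciita overlapped between genotypes. It had 2114, 2189 and 4219 in WT and 2470, 2831 and 2498 in Mtg16 T/T, inside the WT range (-0.05, 95% interval -0.75 to 0.64). Thus 6 of 7 members did not overlap between genotypes, where 13.7% of 13648 genes did not, and 5 of 7 had an unadjusted p under 0.05, where 8.77% of genes did. The share of all genes called by limma was 0%, and edgeR also called 0. DESeq2 called 298 genes, H2-Aa among them. Leaving out each library in turn, H2-Aa stayed between -1.14 and -0.95, Cd74 between -0.66 and -0.53 and H2-Ab1 between -0.82 and -0.64. B cell markers summed to 0.851 to 2.30 RPM in WT and 3.68 to 13.9 in Mtg16 T/T, the opposite direction to the members. The 9 epithelial markers had a median log2 fold change of -0.34, in the members' direction, with none called and none at an unadjusted p under 0.05. The part of the epithelial share in the members' values was not tested. The median fold change of transcripts of 1 to 2 kb was -0.05 in this comparison. That of transcripts over 6 kb, the class of Ciita, was 0.33, a value inside the 95% interval of Ciita. With a smooth trend on transcript length removed H2-Aa was -0.97 (adjusted p = 0.205).

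**Figure D4:**
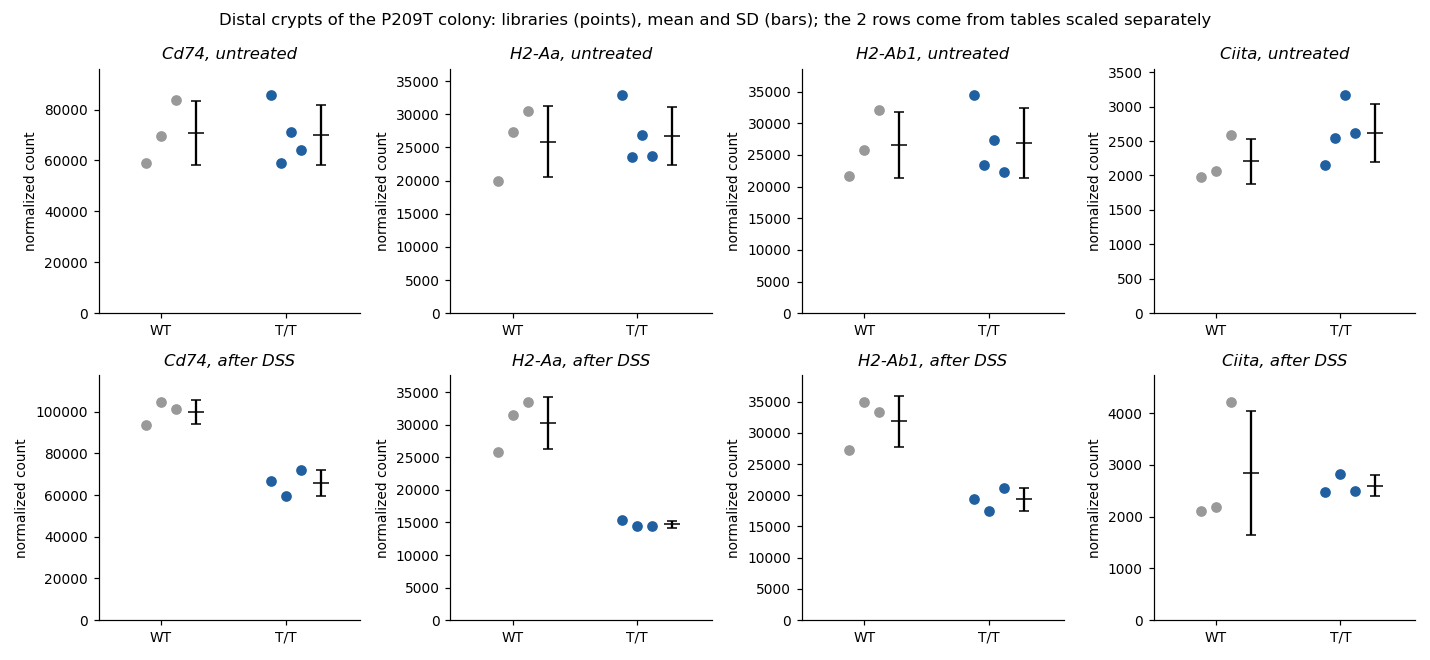
Normalized counts of Cd74, H2-Aa, H2-Ab1 and Ciita in distal crypts of the P209T colony, untreated (top row) and after DSS (bottom row); points are libraries, bars the mean and SD, and the rows come from tables scaled separately. WT and Mtg16 T/T overlap in all top panels, and after DSS they separate for Cd74, H2-Aa and H2-Ab1 but not Ciita.

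Whether the effect of the P209T mutation differed between untreated and injured crypts was tested gene by gene. For H2-Aa the effect was 0.06 untreated and -1.03 after DSS, a difference of -1.09 (SE 0.23, adjusted p = 0.0852 from limma's fold changes and standard errors). H2-Ab1 (-0.73, adjusted p = 0.325) and Cd74 (-0.59, adjusted p = 0.367) had differences of the same sign. For comparison, 0.234% of 13243 genes passed the threshold and 10.8% had an unadjusted p under 0.05. For the null mutation the differences between injured and untreated crypts ran from -0.13 (H2-Aa) to 0.36 (Ciita), with each adjusted p at 0.999 (0.00738% of genes passed and 3.37% had an unadjusted p under 0.05). The mutations themselves were set against each other after DSS, where H2-Aa was 0.05 in Mtg16-/- and -1.03 in Mtg16 T/T, a difference of 1.08 (SE 0.23, adjusted p = 0.583). The other members gave 0.62 (H2-DMb1) to 1.03 (H2-Ab1), with an adjusted p of 0.763 each, and 0.0148% of genes passed, with 4.62% at an unadjusted p under 0.05. Without the library with the proximal-like profile, the differences between the null effects ran from -0.32 (H2-Aa, adjusted p = 0.954) to 0.29 (Ciita, adjusted p = 0.958), none called. In untreated distal crypts the difference between the mutations had adjusted p-values of 0.955 to 0.995 for the members (0% of genes passed, 2.34% at an unadjusted p under 0.05). Without that library these p-values were 0.956 to 0.982, and the differences lay between 0.06 (Ciita) and 0.35 (H2-Ab1). The DSS libraries of the 2 colonies came from different sequencing requests, 6217 and 5740.

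In tumors the members varied widely between mice, and the genotypes overlapped for each of them. Cd74 had 45026, 41400 and 28722 normalized counts in WT tumors and 49239, 68874 and 28824 in Mtg16 T/T tumors. H2-Aa had 12919, 11451 and 6240 in WT and 13822, 21822 and 7834 in Mtg16 T/T. One mutant tumor was the highest of the 6 and another the second lowest for both genes. The log2 fold change was 0.29 (SE 0.32) for Cd74, 0.45 (SE 0.40, 95% interval -0.47 to 1.37) for H2-Aa and 0.00 (SE 0.24) for Ciita. None of the 7 was called by limma, edgeR or DESeq2, and none had an unadjusted p under 0.05. Of 15900 genes, 0% were called by limma, 2.47% had such a p and 5.52% did not overlap between genotypes. The tumors with the highest and lowest members also had the highest and lowest sums of the 25 leukocyte markers, at 825 and 397 RPM, whose part was not tested.

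The neighbours of class II in its pathway were followed as 6 lists: class II relatives, the promoter-binding factors, endosomal processing, class II turnover and costimulation, the interferon gamma axis and the class I pathway. Of their genes, 0 of 35 to 41 tested were called by limma in any genotype comparison, untreated or after DSS or in tumors, and edgeR also called 0 in the 5 of these with recovered reads. At an unadjusted p under 0.05 stood 8 of 38 in Mtg16 T/T crypts after DSS and 11 of 41 in Mtg16-/- crypts after DSS, where DESeq2 called 1 and 3. These are 21.1% and 26.8% of the genes tested, against 8.77% and 12.4% of all genes. In Mtg16 T/T crypts after DSS the medians of the promoter-binding factors (-0.03) and of the class I pathway (-0.05) lay near that of all genes (0.03), against -0.47 for the 7 members. The 4 relatives had a median of 1.72 there, at levels under those of the members. After DSS against untreated crypts, 7 of 41 were called in Mtg16-/- (17.1%, against 23.9% of all genes) and 2 of 37 in Mtg16 T/T crypts (5.41%, against 4.28%), all higher. Neither share stood far above that of all genes. Among them Cd40, a costimulatory receptor of antigen-presenting cells, rose in both, by 2.33 (adjusted p = 0.0167) and 1.99 (adjusted p = 0.0464) on the log2 scale. No gene of the promoter-binding factors, the interferon gamma axis or the class I pathway was called in either (edgeR). Without the library with the proximal-like profile, 7 were higher and 2 lower in Mtg16-/-, the lower ones being Rfxank (-0.45, adjusted p = 0.044) and Ctss (-0.65, adjusted p = 0.0167). WT crypts of the null colony had 0 of 38 called by edgeR, 8 at an unadjusted p under 0.05 (21.1%, against 21.3% of all genes) and 2 called by DESeq2.

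The ratio of the alpha to the beta chain transcript was lower after DSS in both mutants than in untreated crypts. This ratio of H2-Aa to H2-Ab1 reads within a library was chosen after the values had been seen and is given as a description. It needs no scaling between libraries. In the 19 untreated crypt libraries it ran from 0.917 to 1.24. It also differed by sequencing request there, since in distal crypts of the null colony it was 1.16 to 1.24 in request 4149 and 0.954 to 1.01 in request 5094. The libraries after DSS came from other requests, so DSS and request cannot be told apart. After DSS it was 0.683, 0.795 and 0.824, in ascending order, in Mtg16 T/T crypts and 0.646 to 0.876 in Mtg16-/- crypts, below each untreated library. WT crypts after DSS had 0.898 to 1.01 in the P209T colony and 0.741 to 1.06 in the null colony, which overlapped the untreated range. Tumors had 0.727 to 0.992. A sign of RNA quality was set beside the ratio. It is the median log2 level of the longest 10% of transcripts less that of the shortest 10%, each relative to the crypt mean. Within each group after DSS the library with the lowest ratio also had the lowest such index. In Mtg16 T/T the index was -1.2, -0.15 and 0.49 in the order of the ratios above, and in Mtg16-/- it was -0.63 at a ratio of 0.646 and 0.17 at 0.876. In WT of the null colony it was -0.44 at a ratio of 0.741 and 0.31 at 1.06, and in WT of the P209T colony -1.1 at 0.898 and 0.06 at 1.01. Untreated distal crypts had -0.29 to 0.42, and their groups did not share 1 order. In WT of the null colony the lowest index, 0.13, went with the highest ratio, 1.23, and 0.42 went with 1.01. In Mtg16-/- 0.22 went with 1.24 and 0.41 with 0.954. In Mtg16 T/T the lowest index, -0.29, went with the lowest ratio, 0.955. Tumors had an index of 0.58 to 0.96. The part of RNA quality in the ratio was not tested.

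H2-Aa to Cd74 reads were lower after DSS than in untreated distal crypts in WT and mutants alike. They stood at 0.338 to 0.461 in untreated distal crypts and, after DSS, at 0.276 to 0.332 in WT of the P209T colony, 0.256 to 0.331 in WT of the null colony, 0.241 to 0.301 in Mtg16-/- and 0.202 to 0.243 in Mtg16 T/T. Untreated proximal WT crypts had 0.296 to 0.344. H2-Ab1 to Cd74 reads overlapped more, at 0.328 to 0.427 in untreated distal and 0.284 to 0.334 in untreated proximal WT crypts. After DSS they were 0.291 to 0.334 in WT of the P209T colony, 0.305 to 0.346 in WT of the null colony, 0.313 to 0.373 in Mtg16-/- and 0.290 to 0.295 in Mtg16 T/T.

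**Figure D5:**
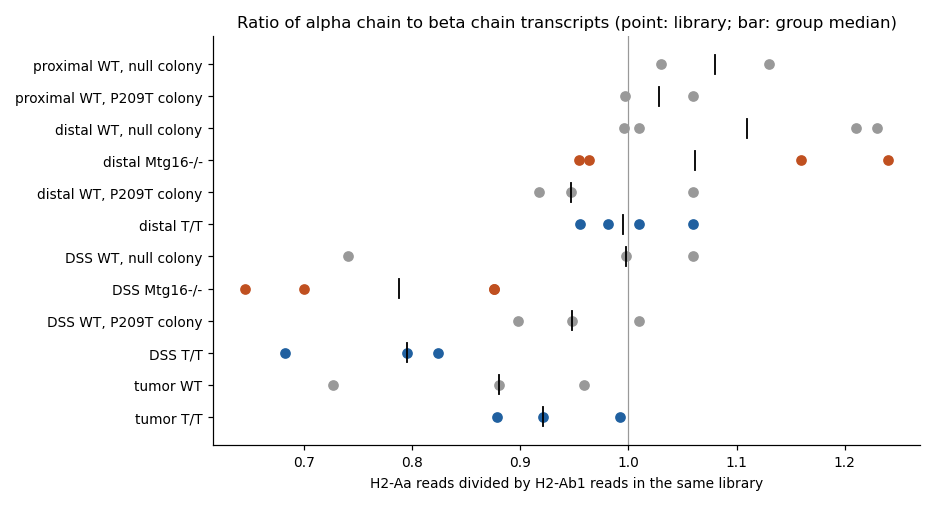
H2-Aa reads divided by H2-Ab1 reads in each library, by group; points are libraries and bars the group median. Both mutants after DSS lie at 0.646 to 0.876, under the untreated crypts at 0.917 to 1.24.

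The members varied together across libraries, with Ciita the loosest. Over the 38 libraries the log2 levels of the 21 gene pairs correlated with Pearson's r of 0.81 to 0.98 (median 0.95), a description that rests in part on the gap between crypts and tumors. Within the 32 crypt libraries r was 0.48 to 0.95 (median 0.84). There the pairs without Ciita had at least 0.72 and those with Ciita at most 0.56. Without the library with the proximal-like profile the ranges were 0.81 to 0.98 over 37 libraries and 0.48 to 0.95 over 31 crypt libraries. Libraries of a group share mice strain, request and scaling, so no test is given.

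Outside the pathway, the genes closest to the mean of the members over the 38 libraries (9345 compared) were St3gal4 (r = 0.931), Glod5 (0.93), Psmb8 (0.93), H2-T22 (0.927), Psmb9 (0.92), Selenbp1 (0.915), Pdzd3 (0.909), Vdr (0.906), AA467197 (0.904) and Plaat3 (0.903). Psmb8 and Psmb9 encode subunits of the immunoproteasome and lie in the MHC locus. Within crypts alone the order was led by the nonclassical class I genes H2-T22 (0.757), H2-Q7 (0.754) and H2-Q6 (0.728), then Psmb8 (0.716), the complement gene C2 (0.704) and Psmb9 (0.691). H2-Q7 and H2-Q6 belong to a family of near-identical copies, so their counts are uncertain. Without the library with the proximal-like profile, 8 of the 10 closest genes over all libraries were the same, and within crypts H2-Q7 (0.763), H2-T22 (0.758) and H2-Q6 (0.743) came first.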

How the data were processed

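Poly(A) RNA libraries were sequenced as 150 bp read pairs. Per the labels and the study's methods, the authors trimmed reads with fastp 0.20.0, quantified transcripts with Salmon 1.3.0 against GENCODE vM21 (mm10), summed them per gene and normalized with DESeq2 1.26.0 in R 3.6.3. The authors deposited 9 tables of normalized counts, a signal equal to whole reads over a size factor, scaled in each table separately (59 library columns, 42 libraries). Their own fold changes and p-values, also in the tables, were not used. The 10 libraries found in several tables counted once.

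Whole reads were recovered for 38 libraries (100% of values within 0.1 read of a whole number). The 2 proximal mutant tables gave no steps, so edgeR and DESeq2 were not run there. Within a table, log2(normalized count + 1) was tested with limma 3.58.1 (trend) over genes averaging 10 or more, p-values were adjusted by Benjamini-Hochberg (threshold 0.05), and fold changes of low genes are understated. Groups in different tables were joined on recovered reads and tested with edgeR 4.0.16 (quasi-likelihood, TMM). DESeq2 1.42.0, a pseudocount of 0.1, no filter, the replicate number as a block, requests and left-out libraries were alternatives. Removing a length trend (lowess, span 0.3), and the alternatives for the differences between effects, were added after seeing the data. The scripts were tested on simulated data.

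Groups came from the labels. The replicate number paired libraries in Mtg16-/- against WT after DSS, where same-numbered libraries deviated together in all 3 pairs (correlation 0.33 to 0.56). Named were the 7 members in every comparison, Cbfa2t3, at most 3 genes per list and direction with the smallest adjusted p, and the 10 genes most correlated with the members' mean (at least 10 RPM, reads per 1000000). The members and lists were chosen with earlier results of these data known. Depth leaves counting error well under the spread between libraries for the members, but not for genes near 1 RPM. One result of a pathway list is not reported here.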

Additional observations from a re-analysis of the deposited data

Results flagged for a closer look

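Some fold changes differed in direction between comparisons. Cd74 had a log2 fold change of 0.2 after DSS in WT crypts of the P209T colony and of -0.39 in WT crypts of the null colony, -0.35 in Mtg16-/- and -0.34 in Mtg16 T/T crypts. Every library after DSS lay above the untreated mean in the first comparison and below it in the other 3. The difference between Mtg16 T/T and WT of the P209T colony is the one tested as the difference of P209T effects (-0.59 from limma's fold changes, adjusted p = 0.367), and was not called. The differences from the null colony were not tested. In untreated proximal crypts the mutations had opposite signs, with 2 libraries a group, all Mtg16-/- libraries above and all Mtg16 T/T libraries below their WT mean. Cd74 was 0.22 in Mtg16-/- and -0.33 in Mtg16 T/T, H2-Ab1 was 0.1 and -0.36, and H2-DMa was 0.19 and -0.31. These differences were not tested. No library stood apart from its group in the 32 checks of a member or of Cbfa2t3 in a group of 4 (28 of them of a member).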

How the results depend on the processing

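Of 1267 fold changes of members under alternatives, 1166 kept their direction and their side of the threshold, 4 were lost as calls, 12 were gained and 85 changed sign, mostly values near 0. The cause was not tested. H2-Aa in Mtg16-/- crypts after DSS was called in all 12 of its alternatives (-1.19 to -0.83, adjusted p = 0.000292 to 0.0455). H2-Aa in Mtg16 T/T crypts after DSS was lost with the replicate block (adjusted p = 0.108). Each paired fit and request fit uses fewer degrees of freedom or libraries.

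The number of members called moved as follows. For WT segments the replicate block gave 1 (Ciita, -0.35). For Mtg16 T/T against WT after DSS, DESeq2 gave 1. For DSS in WT of the null colony, DESeq2, the replicate block and the length trend each gave 1 (H2-Aa). For DSS in Mtg16-/- the length trend gave 3. For DSS in Mtg16 T/T the length trend gave 3, DESeq2 2 and the replicate block 0. Leaving out each library in turn gave 0 to 1 for DSS in WT of the P209T colony (1 without DSS replicate 3), 0 to 1 for DSS in WT of the null colony (1 without untreated replicate 2) and 0 to 1 for DSS in Mtg16 T/T.

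Signs turned as follows. WT segments, replicate block, H2-Aa -0.14, H2-Ab1 -0.06 and H2-DMb1 -0.03, and with the request as covariate or request 4149 alone, Cd74 0.24, Ciita 0.20, H2-Eb1 0.30 and H2-DMa 0.21. Mtg16-/- proximal, length trend, H2-DMb1 0.01. Mtg16-/- distal, request 4149 alone, Cd74 -0.03, H2-Aa -0.05 and H2-Ab1 -0.02. Mtg16 T/T distal, replicate block, Cd74 0.02. DSS in WT of the P209T colony, Ciita 0.46 (length trend), 0.11 (edgeR) and 0.06 (DESeq2), and H2-Ab1 0.00 (edgeR). Mtg16-/- after DSS, length trend, H2-Aa -0.07. Tumors, length trend, Ciita -0.03. WT colonies, request 5094 alone, Cd74 0.13, Ciita 0.17, H2-Aa 0.08, H2-Ab1 0.13, H2-Eb1 0.14 and H2-DMa 0.09. Difference of the null effects, Cd74 -0.04 (replicate block) and -0.06 (length trend), H2-Ab1 -0.00 and -0.04. Without the distal Mtg16-/- replicate 2, Cd74 was -0.08 and H2-Ab1 -0.04 in that difference, and Ciita 0.06 in the difference between mutations in untreated distal crypts.

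With 1 library left out, ranges that crossed 0 were, for WT segments, H2-Eb1 -0.09 to 0.03 and H2-DMb1 -0.00 to 0.08. For Mtg16-/- they were H2-DMb1 -0.12 to 0.01 (proximal), Ciita -0.09 to 0.45 and H2-DMb1 -0.07 to 0.13 (distal), and H2-Aa -0.10 to 0.15 and H2-DMb1 -0.08 to 0.30 (after DSS). For Mtg16 T/T proximal they were Ciita -0.33 to 0.04, H2-Aa -0.47 to 0.08 and H2-Eb1 -0.47 to 0.12. For Mtg16 T/T distal they were Cd74 -0.14 to 0.11, H2-Aa -0.12 to 0.19, H2-Ab1 -0.12 to 0.16, H2-Eb1 -0.10 to 0.14 and H2-DMa -0.10 to 0.11. For Mtg16 T/T after DSS it was Ciita, -0.23 to 0.27. For tumors they were Cd74 -0.00 to 0.63 and Ciita -0.24 to 0.26. For WT colonies they were Ciita -0.23 to 0.03, H2-Ab1 -0.24 to 0.05, H2-Eb1 -0.27 to 0.01 and H2-DMa -0.19 to 0.05. For DSS in WT of the P209T colony they were Ciita -0.35 to 0.17, H2-Aa -0.24 to 0.06, H2-Ab1 -0.17 to 0.11, H2-Eb1 -0.21 to 0.03 and H2-DMa -0.21 to 0.00. For DSS in Mtg16-/- they were Ciita -0.52 to 0.09 and H2-DMa -0.29 to 0.01.

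Counts of all genes called moved by over 1.5 times in these cases, with the range over single libraries left out where that range did so. WT segments had 5824, and 3189 with the request as covariate or 2014 in request 4149 alone. Mtg16-/- proximal had 9, and 32 with the block and 6 to 22 with a library left out. Mtg16-/- distal had 33, and 224 by DESeq2, 1 with the block, 8 with the request as covariate, 2 and 0 within requests 4149 and 5094, and 2 to 143 with a library left out. Mtg16 T/T proximal had 32, and 151 with the block, 2 without a filter and 0 to 27 with a library left out. Mtg16 T/T distal had 5, and 51 by DESeq2, 0 with the block and 0 to 8 with a library left out. DSS in WT of the P209T colony had 4833, and 2679 with the block and 1 to 9086 with a library left out. Mtg16-/- after DSS had 91, and 780 by DESeq2, 1271 with the block, 164 with the length trend and 28 to 106 with a library left out. Mtg16 T/T after DSS had 0, and 298 by DESeq2, 9 with the length trend and 0 to 3 with a library left out. Tumors had 0, and 30 by DESeq2, 1 without a filter and 0 to 1 with a library left out. WT colonies had 5, and 115 by DESeq2, 40 in request 5094 alone, 3 by edgeR or with the length trend and 2 to 14 with a library left out. DSS had 746 in WT of the null colony (1402 by DESeq2, 1211 with the block, 526 to 1233 with a library left out), 3415 in Mtg16-/- (1554 to 4765 with a library left out) and 590 in Mtg16 T/T (1371 by DESeq2, 87 with the block, 57 to 1308 with a library left out). The difference of P209T effects had 31, and 2 with the block. That of the null effects had 1, and 65 with the block, 4 without a filter, 2 with the length trend and 49 without distal Mtg16-/- replicate 2. Between mutations there were 2 after DSS (4 with the block, 1 with the length trend) and 0 in untreated distal crypts (1 with the block, 2 without that library).

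Apart from Mtg16-/- after DSS, same-numbered libraries were not treated as pairs, with correlations of -0.77 to 0.63. The replicate block changed the call of no member beyond those given. In distal crypts of the null colony, same-numbered WT and Mtg16-/- libraries shared a request, with correlations of 0.01 to 0.36. Request 5094 held replicates 1 and 2, and request 4149 held 3 and 4. The main fit there did not include the request. Request 6217 held the null colony's DSS libraries and 5740 those of the P209T colony, which limits all comparisons with untreated crypts.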
